A study of Saccharomyces cerevisiae with 4 samples.

Results

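Of the 6301 open reading frames (ORFs) on the yeast arrays, 9 hexose transporter genes are described here, HXT1 and HXT3 to HXT10. They were taken as a family by their systematic names, with earlier results of these data known. Samples of minimal medium (MM) were cells of Saccharomyces cerevisiae strain S288c resuspended for 12 h in a nitrogen-poor medium that held 0.025% ammonium sulfate and neither amino acids nor adenine. Their counterparts were cells of the same strain in mid log phase (OD600 of 0.4) in nitrogen-rich synthetic complete medium (SC), grown at 30°C and 160 rpm. Each of 4 spotted arrays carried cDNA of both media, primed with oligo-dT from 2 µg of mRNA. By the array titles, MM was in Cy5 and SC in Cy3 on 2 arrays. The dyes were exchanged on the other 2, with replicates 1 and 2 in each orientation. The nitrogen source, the amino acids and adenine, and the further 12 h of culture differ together between the media and cannot be told apart, and the glucose left at harvest is not given in the sources used here.

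Yeast takes up glucose and fructose by facilitated diffusion through the Hxt proteins, a family of sugar carriers of the plasma membrane that differ in affinity and in when they are made. Low-affinity carriers such as Hxt1 and Hxt3 serve cells in abundant glucose, and high-affinity carriers such as Hxt6 and Hxt7 serve cells in scarce glucose. The sensors Snf3 and Rgt2 detect sugar outside the cell and relieve repression of HXT genes by Rgt1, while the repressor Mig1 shuts off the high-affinity genes when glucose is plentiful. Several members arose by recent duplication, and HXT6 and HXT7 encode almost the same protein.

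All values are log2 ratios of MM over SC, so that 1 is a doubling in MM. Titles of the arrays give MM and SC the reverse of the dyes that the channels' own labels give them. Arrays are named here by their titles, and which dye MM carried was not tested. If the labels are right, MM in Cy5 and SC in Cy5 are exchanged throughout, and differences between orientations change sign. Because titles and labels differ, the direction of the ratios was taken from the signs of genes in measurements whose medium is named. Sequence tags, which carry no dye, gave MM over SC for 339 of 413 called genes, with the tag ratios centred on their median over genes. The authors' oligo-dT array levels gave it for 517 of 517. Those levels come from the oligo-dT arrays of the study itself, so they are not a separate check. The arrays held between 4122 and 5941 values with medians from -0.06 to 0.05, and the arrays of replicate 2 were blank for 30.3% of ORFs with MM in Cy5 and for 34.6% with SC in Cy5. In 4 runs of neighbouring systematic names, with 1549 ORFs, the replicates did not correlate gene by gene (r = 0.042 over the genes inside, 0.959 over those outside), and none of the 9 members lies in a run. Ratios were set against the mean of the well measured spots, so a change in total mRNA per cell cannot be told apart from none.

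Most of the family had ratios above 0, led by HXT5 and HXT6. Of 36 possible values (9 genes on 4 arrays) 30 were present, 27 of them positive and 3 negative. On every array with a value, 7 of the 9 genes were positive, against 35.9% of all ORFs with a value, and the exceptions were HXT3 and HXT7. The 9 other HXT and GAL2 genes described below gave the same count, 7 of 9, so it was not particular to these members. For the test, the arrays of both orientations of a replicate were averaged (n = 2), and the genes that no array left blank were fitted together in limma with Benjamini-Hochberg adjustment. Of the 9 genes 5 had such values (HXT1, HXT3, HXT4, HXT5 and HXT7), of which 3 were called higher at an adjusted p at or under 0.05 and 0 lower, beside 16.5% of the 3765 genes fitted called higher, 17.0% called lower and 33.5% in either direction. The same 5 genes included 3 that were positive on all 4 arrays (HXT1, HXT4 and HXT5), beside 29.1% of all genes fitted, and 3 with a mean of at least 2-fold (HXT4, HXT5 and HXT7), beside 7.12%. Their median log2 ratio was 1.14, beside -0.02 over all genes fitted. This median is the mean of HXT7, which was high in 1 dye orientation only (2.47 with MM in Cy5, -0.19 with SC in Cy5). HXT7 is also among the 3 genes called, and its call was lost with the 4 arrays as separate values (limma adjusted p 0.134). The other 4 genes had blanks and are described by their values.

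**Figure D1:**
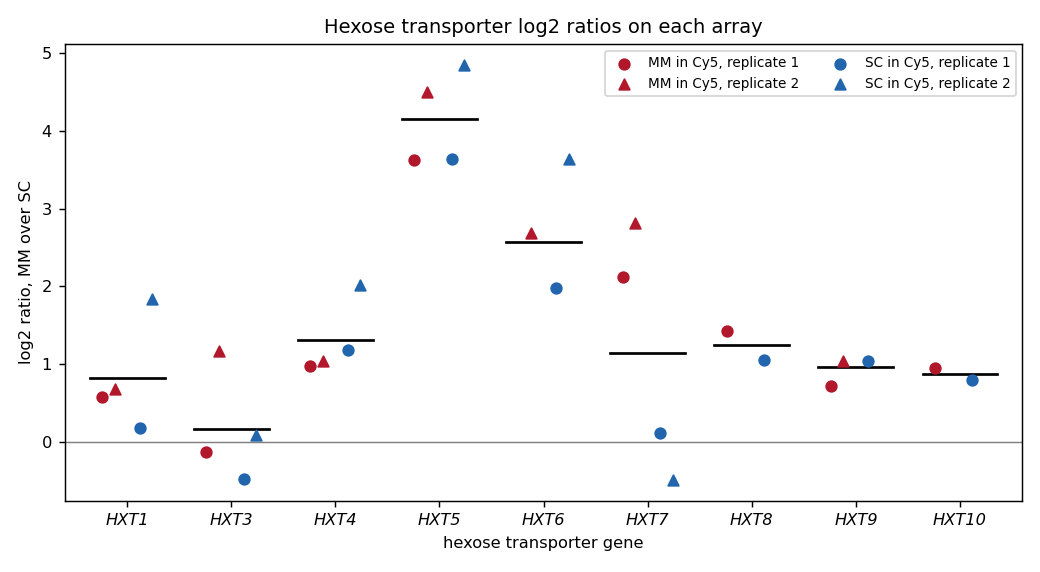
Log2 ratio of MM over SC (vertical axis) of the 9 hexose transporter genes on each array, with MM in Cy5 in red and SC in Cy5 in blue, replicate 1 as circles and replicate 2 as triangles; bars are means of the replicate means (for HXT8 and HXT10, replicate 1 alone). HXT5 lies highest, between 3.62 and 4.85, and HXT7 is the gene whose red and blue points are furthest apart.

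The carriers known for low affinity, HXT1 and HXT3, had the lowest mean ratios of the 9 genes, but HXT1 was not told apart from the genes next above it. In replicate 2 HXT1 (1.26) stood above HXT7 (1.16) and HXT9 (1.03). HXT1 (YHR094C), the low-affinity carrier induced by high glucose, had log2 ratios of 0.58 and 0.68 with MM in Cy5 and of 0.17 and 1.84 with SC in Cy5 (replicates 1 and 2). It was positive on 4 of 4 arrays, with SC in Cy5 replicate 2 far above the others. Its mean was 0.82 ± 0.62 (SD, n = 2), a 1.76-fold ratio, and it was not called (limma adjusted p 0.107). With the 4 arrays taken as separate values HXT1 was called (limma adjusted p 0.0423), in a fit that called 22.4% of genes higher. The same held with genes on at least 2 arrays (21.6% called higher) and with the genes of the runs left out (30.8%). The last of these fits draws on the spread shared over genes and does not measure that between the replicates of HXT1. HXT3 (YDR345C), another low-affinity carrier, expressed over a wide range of glucose, had log2 ratios of -0.14 and 1.16 with MM in Cy5 and of -0.48 and 0.09 with SC in Cy5. Both replicate 1 arrays were negative and both replicate 2 arrays positive, so the replicates did not share a sign. The mean of HXT3 was 0.16 ± 0.66 (SD, n = 2, limma adjusted p 0.683), and it was -0.11 without MM in Cy5 replicate 2.

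HXT4 (YHR092C), a carrier of intermediate affinity induced by low glucose, rose in MM. Its log2 ratios were 0.97 and 1.04 with MM in Cy5 and 1.18 and 2.02 with SC in Cy5, so that both arrays of the second orientation lay above both of the first. The mean was 1.30 ± 0.32 (SD, n = 2), a 2.47-fold ratio with a limma adjusted p of 0.0204. HXT4 stayed called when any single array was left out (adjusted p from 0.0201 to 0.0406).

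HXT5 (YHR096C), a carrier of moderate affinity known for its expression in slowly growing and stationary cells, had the largest mean ratio of the 9 genes. Its log2 ratios were 3.62 and 4.50 with MM in Cy5 and 3.64 and 4.85 with SC in Cy5. The orientations overlapped and differed little within a replicate, while both replicate 2 arrays were above both replicate 1 arrays. The mean was 4.16 ± 0.74 (SD, n = 2), a 17.8-fold ratio that ranged from 12.3-fold to 28.9-fold over single arrays (limma adjusted p 0.0117). It ranked 6 among the 3765 genes fitted. Leaving out single arrays moved the mean of HXT5 between 4.07 and 4.24 and kept the call (adjusted p from 0.00813 to 0.0147).

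Of the high-affinity carriers, HXT6 was high on each array that measured it, and HXT7 was high in 1 dye orientation only. HXT6 (YDR343C) had log2 ratios of 2.69 with MM in Cy5 replicate 2, and of 1.98 and 3.64 with SC in Cy5. Its spot was blank with MM in Cy5 replicate 1, so replicate 1 rests on 1 array. All 3 values were high, with a mean of 2.57 ± 0.83 (SD, n = 2), a 5.94-fold ratio. When genes with at least 3 values were fitted and arrays taken as independent, HXT6 was at 2.77 and was called (limma adjusted p 0.00169, over 4570 genes with 21.7% called higher).

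HXT7 (YDR342C) had log2 ratios of 2.12 and 2.82 with MM in Cy5 but of 0.11 and -0.49 with SC in Cy5. It was thus 5.53-fold higher in MM on the first pair of arrays and near equal between media on the second (0.877-fold). Its mean over both orientations was 1.14 ± 0.03 (SD, n = 2) and was called (limma adjusted p 0.0129). This small SD is that of replicate means, in which the orientations are averaged, and the SD does not hold the spread between them. The call was lost with the 4 arrays as separate values (limma adjusted p 0.134) and without 3 of the 4 single arrays. The mean of HXT7 was 0.64 without replicate 1 of MM in Cy5, 0.31 without replicate 2 of MM in Cy5 and 1.97 without replicate 2 of SC in Cy5 (limma adjusted p 0.220, 0.640 and 0.0606). Without replicate 1 of SC in Cy5 the mean was 1.64 and HXT7 stayed called (limma adjusted p 0.0308).

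The difference between orientations of HXT7 (MM in Cy5 minus SC in Cy5) was 2.00 in replicate 1 and 3.31 in replicate 2, with a mean of 2.66. Only RRP5, a ribosome assembly factor, had a difference larger in size, of the opposite sign, among the 3765 genes, and the median size of the difference was 0.22. In limma with a dye term and no pairing of the arrays HXT7 did not pass (adjusted p 0.568, unadjusted p 0.000978), in a fit that called 0.0266% of genes. It passed once the arrays were blocked by replicate number (limma adjusted p 2.77e-08, 0.691% of genes called, and 0.568% without the genes of the runs) and, with no block, when the genes of the runs were left out (limma adjusted p 0.00177, 0.0668% called). The other 4 fitted members did not pass with or without the block. Their differences were -0.37 for HXT1, 0.70 for HXT3, -0.59 for HXT4 and -0.18 for HXT5. HXT6, which was not fitted, had both orientations in replicate 2 alone, with a difference of -0.95. The orientations did not overlap in 2 of 5 members, HXT4 and HXT7, beside 44.0% of all genes fitted. None of the arrays set an RNA against itself, so an effect of the dyes on the HXT7 spot and any other difference between the 2 pairs of arrays cannot be told apart.

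Set against HXT7 within each array, HXT6 differed by -0.13 with MM in Cy5 replicate 2, by 1.87 with SC in Cy5 replicate 1 and by 4.13 with SC in Cy5 replicate 2 (HXT6 minus HXT7, log2 ratios). The pair was therefore alike on the MM in Cy5 array where both were measured and unlike on both SC in Cy5 arrays. The probes were PCR products of ORFs, on which transcripts of HXT6 and HXT7 can bind to either spot, and the part of cross-hybridization in these values was not tested. The same limit holds for the other close relatives in the family, whose ratios are those of spots.

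**Figure D2:**
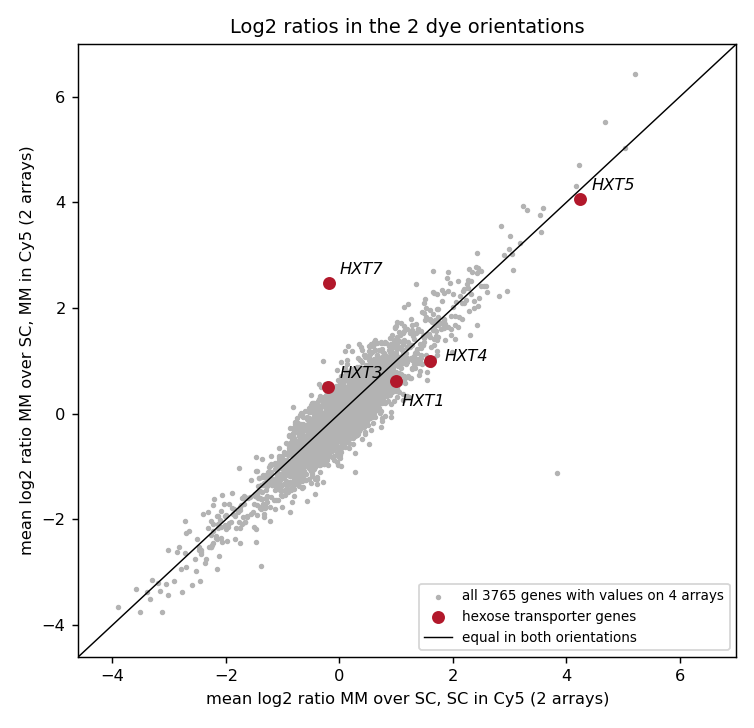
Mean log2 ratio of MM over SC with MM in Cy5 (vertical axis, 2 arrays) against that with SC in Cy5 (horizontal axis, 2 arrays) for 3765 genes (grey) and 5 hexose transporter genes (red), with the line of equal values. HXT7 lies far above the line, at 2.47 on the vertical axis and -0.19 on the horizontal axis, while HXT5 lies close to it.

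HXT8, HXT9 and HXT10 are known for low expression in common laboratory media. HXT9 (YJL219W), a close relative of HXT11 whose expression is tied to drug resistance regulators, had log2 ratios of 0.72 and 1.03 with MM in Cy5 and of 1.04 with SC in Cy5 replicate 1. The SC in Cy5 replicate 2 spot was blank. These 3 values lay within 0.32 of each other, with a mean of 0.96 ± 0.11 (SD, n = 2), a 1.94-fold ratio. In the fit of genes with at least 3 values, with arrays taken as independent, HXT9 was at 0.93 and was called (limma adjusted p 0.00374). That fit called 21.7% of genes higher, and it counts the 2 arrays of replicate 1 as separate values. HXT8 (YJL214W) had log2 ratios on the replicate 1 arrays alone, of 1.43 (MM in Cy5) and of 1.05 (SC in Cy5). HXT10 (YFL011W) likewise had 0.95 (MM in Cy5) and then 0.80 (SC in Cy5). Both genes were blank on both arrays of replicate 2, a pattern found in 20.0% of all ORFs. Their means of 1.24 (2.36-fold) and 0.87 (1.83-fold) therefore have no replicate check.

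By the mean log2 ratio the order was HXT5, HXT6, HXT4, HXT8, HXT7, HXT9, HXT10, HXT1 and HXT3. The means of HXT8 and HXT10 are of replicate 1 alone, while replicate 2 was higher in all 7 members measured in both. In replicate 1 alone HXT8 (1.24) and HXT7 (1.12) stood above HXT4 (1.08). HXT5 stood above HXT6 in both replicate means (3.63 and 4.68 for HXT5, 1.98 and 3.16 for HXT6), and HXT6 above HXT4 (1.08 and 1.53), although the lowest array of the higher gene lay just below the highest array of the lower gene in both cases. From HXT4 down to HXT1 neighbours were not told apart, since the single arrays of each gene overlapped those of the next. HXT1 lay above HXT3 in both replicate means (0.38 and 1.26 for HXT1, -0.31 and 0.63 for HXT3), while their single arrays overlapped.

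In 4 of the 5 fitted members the replicates lay further apart than in most genes. The SDs between replicates of HXT1, HXT3, HXT4 and HXT5 were larger than in 99.2%, 99.3%, 95.6% and 99.6% of the genes outside the runs, where the median SD was 0.10. HXT7 was the exception, with an SD larger than in 18.2%. Replicate 2 was above replicate 1 in 7 of the 7 members measured in both, by 0.05 (HXT7) to 1.18 (HXT6). The same order was found in 46.9% of all genes fitted and in 57.2% of the genes called higher in MM. Of the 6 blanks 5 fell in replicate 2, which had more blanks over the whole array.

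HXT7, HXT6 and HXT3 lie close together on chromosome IV, as do HXT4, HXT1 and HXT5 on chromosome VIII, in the order of the systematic names (RefSeq R64, used for names and neighbours only). On chromosome IV the ORF YDR344C, between HXT6 and HXT3, had log2 ratios of 1.62 and 2.14 with MM in Cy5 and of 1.39 with SC in Cy5 replicate 1. It lay below HXT6 by 0.55 and 0.59 on the 2 arrays that measured both. SVF1, past HXT3, stayed between -0.15 and 0.19 and YDR341C, before HXT7, between -2.21 and -1.21. Neither had ratios like those of HXT6, or of HXT7 with MM in Cy5. With SC in Cy5 SVF1 had 0.19 and 0.01, beside 0.11 and -0.49 for HXT7. On chromosome VIII the ORF YHR095W, between HXT1 and HXT5, had log2 ratios of 1.47 and 0.92 with MM in Cy5 and of 0.82 and -0.63 with SC in Cy5. On SC in Cy5 replicate 2, where HXT4, HXT1 and HXT5 each had their highest value, YHR095W had its lowest. PAL2 (YHR097C), past HXT5, was positive on 4 of 4 arrays, with its lowest value at 0.29.

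**Figure D3:**
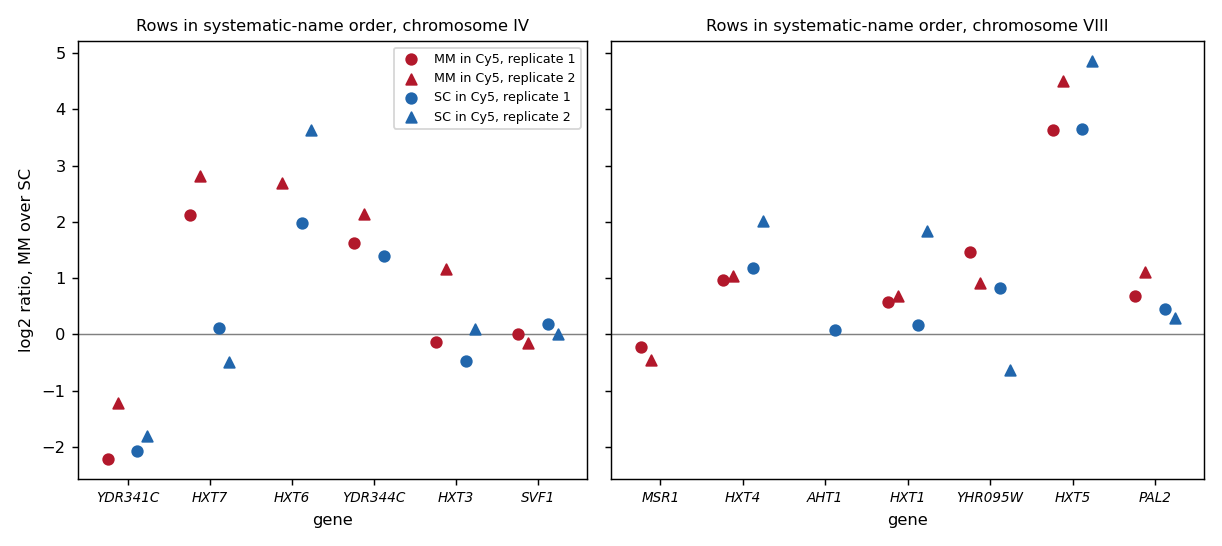
Log2 ratio of MM over SC (vertical axis) on each array for consecutive rows around the transporters of chromosome IV (left) and chromosome VIII (right), with MM in Cy5 in red, SC in Cy5 in blue, replicate 1 as circles and replicate 2 as triangles. The red and blue points part for HXT7 in both replicates. HXT6 has 1 red point, below the blue point of replicate 2 and above that of replicate 1. HXT5 rises far above PAL2 beside it.

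The profiles over the 4 arrays most like each fitted member were found among 3760 other genes by Euclidean distance of the log2 ratios, as a description. For HXT5 they were INO1, the inositol phosphate synthase, and STL1, a glycerol importer of the same superfamily of sugar carriers, at distances of 1.03 and 1.18. For HXT4 they were CHO2, a phospholipid methyltransferase, and GIT1, a glycerophosphoinositol permease, at 0.27 and 0.29. AAC3, a mitochondrial ADP/ATP carrier, and YBR226C were closest to HXT1, at 0.41 and 0.51. For HXT3 they were ACP1 and SCP1, at 0.35 and 0.60, both of which lie inside the runs. HXT7 had no near neighbour, with YCL006C at 1.82 and ECM15 at 1.88.

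Few of the remaining genes of the family could be read on all arrays. Of 9 other HXT and GAL2 genes only HXT15, a polyol carrier, had values on all 4 arrays. It was positive on each, at 0.38 ± 0.01 (SD, n = 2), and was not called (limma adjusted p 0.0614). HXT12, a likely pseudogene, had 1.11 with MM in Cy5 replicate 1 and 1.03 and 1.36 with SC in Cy5. HXT11, the near copy of HXT9, had 0.19 and 0.37 with MM in Cy5 and a single value of 0.98 with SC in Cy5. It was lower than HXT9 by 0.53 and 0.67 on the first 2 arrays but only by 0.06 on the third (HXT9 minus HXT11). Transcripts of HXT9 and HXT11 can bind to either spot, and the part of cross-hybridization was not tested. HXT2, a high-affinity carrier that lies in a run, was between 0.02 and 0.86, HXT13 between -0.29 and 0.00, and HXT17 at -0.64 on its 1 array. GAL2, which also lies in a run, was between 0.25 and 0.99, HXT14 between 0.21 and 0.33 and HXT16 between 0.22 and 0.54. Of these 9 genes 7 were positive on every array with a value, the same count as in the 9 members.

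The share of called genes in the lists of the wider pathway is read against that over all genes fitted, at 16.5% higher, 17.0% lower and 33.5% in either direction. Of 10 genes of glucose sensing and of HXT repression or its relief 8 were fitted, with 0 called higher and 2 lower. That is a smaller share than the 33.5% over all genes, and their median log2 ratio was -0.32. RGT2, the low-affinity glucose sensor, fell, with a log2 ratio of -0.49 ± 0.07, and GRR1, the ubiquitin ligase subunit that targets HXT corepressors, fell with a ratio of -0.57 ± 0.05 (SD, n = 2, limma adjusted p 0.0417 and 0.0312). Both were negative on 4 of 4 arrays. RGT2 lost the call without MM in Cy5 replicate 1 or 2 or SC in Cy5 replicate 2 (limma adjusted p 0.124, 0.157 and 0.0654), and GRR1 without MM in Cy5 replicate 1 or 2 (0.0512 and 0.146). The high-affinity sensor SNF3 was at 0.56 ± 0.41 and the corepressor gene MTH1 at 0.05 ± 0.17 (limma adjusted p 0.112 and 0.750).

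In the Snf1 and Mig1 branch of glucose repression, 8 of 10 genes were fitted, with 3 called higher and 0 lower, a share near the 33.5% over all genes, and a median of 0.20. REG1, which directs protein phosphatase 1 against Snf1, rose by 0.80 ± 0.18, and the Snf1 kinase subunits SIP2 and SNF4 rose by 0.73 ± 0.07 and 0.59 ± 0.10 (SD, n = 2, limma adjusted p 0.0263, 0.0229 and 0.0337). REG1 lost the call without MM in Cy5 replicate 2 (limma adjusted p 0.0578) and SIP2 without SC in Cy5 replicate 2 (0.0509). SNF4 lost it without MM in Cy5 replicate 1 or 2 or SC in Cy5 replicate 2 (limma adjusted p 0.0528, 0.0938 and 0.0520). The kinase gene SNF1 was at -0.39 ± 0.09 and the repressor gene MIG1 at -0.15 ± 0.03, and neither was called (limma adjusted p 0.0652 and 0.293).

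Of 4 genes of hexose phosphorylation, the step after uptake, all were fitted, with 1 called higher and 0 lower, beside 16.5% and 17.0% over all genes, and a median of 0.24. HXK1 rose by 0.94 ± 0.21 (SD, n = 2, limma adjusted p 0.0234), with values from 0.62 to 1.43. HXK2, the main hexokinase of cells in glucose, was at -0.02 ± 0.05, and GLK1, the glucokinase, at 0.49 ± 0.31 (limma adjusted p 0.885 and 0.0975).

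Of 10 other sugar and polyol carriers 6 were fitted, with 3 called higher and 1 lower, beside 16.5% and 17.0% over all genes, and a median of 0.85. STL1 rose by 3.75 ± 0.29, ITR1, a myo-inositol carrier, by 1.79 ± 0.34 and VVS1 (YBR241C), a putative carrier, by 1.45 ± 0.14 (SD, n = 2, limma adjusted p 0.00864, 0.0152 and 0.0115). The spot of MPH3, an alpha-glucoside permease, fell, with a log2 ratio of -0.94 ± 0.19 (limma adjusted p 0.0223). Transcripts of its close copy MPH2 can bind to this spot as well. These 4 calls were kept when any single array was left out.

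Of 8 genes for endocytosis and turnover of carriers 4 were fitted, with 1 called higher and 2 lower, beside 16.5% and 17.0% over all genes, and a median of -0.28. CSR2, an arrestin-related adaptor, rose by 1.06 ± 0.26, while VID24, a subunit of the GID ubiquitin ligase, fell, at -1.39 ± 0.11, as did RSP5, the ubiquitin ligase of endocytosis, at -0.49 ± 0.06 (SD, n = 2, limma adjusted p 0.0229, 0.0112 and 0.0412). CSR2 lost the call without SC in Cy5 replicate 1 (limma adjusted p 0.0527) and VID24 without SC in Cy5 replicate 2 (0.0760). RSP5 lost it without any 1 of the 4 arrays (limma adjusted p from 0.0501 to 0.291), and under quantile scaling (0.0613).

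**Figure D4:**
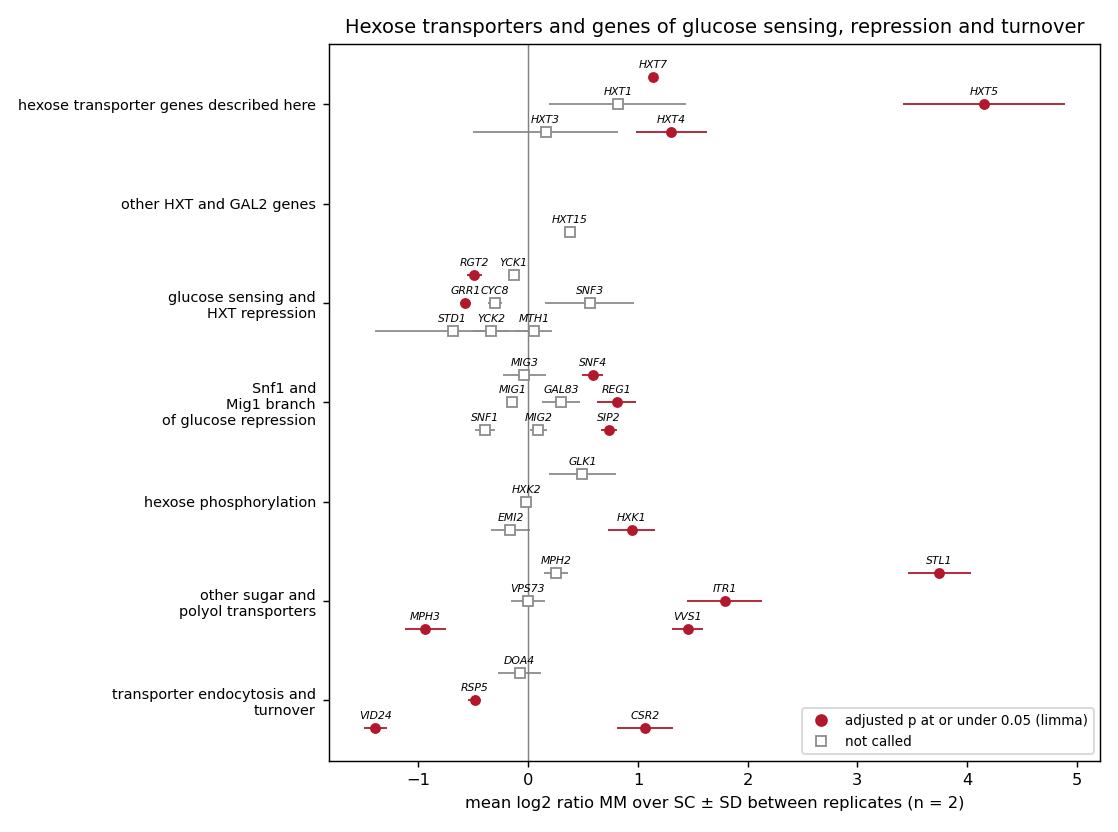
Mean log2 ratio of MM over SC with the SD between replicates (horizontal axis, n = 2) for genes with values on all 4 arrays, by list (vertical axis), with called genes as filled red circles and others as open squares. HXT5 at 4.16 and STL1 at 3.75 lie furthest right, and the glucose sensing genes lie near or below 0 except SNF3.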

How the data were processed

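The 9 genes and all lists were chosen with earlier results of these data known. The authors scanned spotted ORF arrays, subtracted background, blanked spots not exceeding 3 SDs of the background pixels and normalized mean by mean. They deposited 1 ratio for each ORF on each array, read here as log2 values, since neither base nor direction is stated with them. Over 5 genes with a stated ratio of MM over SC, 4 of them in the runs, log2 was the closest base. Direction was checked by sign only, over genes called here and listed by medium in supplementary tables of the study, held here in part. The sign was that of MM over SC for 517 of 517 genes with array levels, which come from the study's own oligo-dT arrays. It was the same for 339 of 413 genes (82.1%) with at least 20 sequence tags in all, after the tag ratios were centred on their median. None of these genes lies in the runs, whose boundaries come from earlier work on the values. Arrays of opposite orientation correlated positively (r = 0.928 and 0.859), so no sign was turned.

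The series holds 2 biological replicates with dye swaps, from which arrays were paired by number. The difference between replicates 1 and 2 correlated between orientations at 0.706 over all genes and 0.044 outside the runs. The methods of the study trace replicates to separate reverse transcription reactions, and separate cultures are stated only by the word biological. P-values measure the spread between these samples, which may be technical.

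Ratios were tested with limma 3.58.1 in R 4.3.3 (lmFit, eBayes, two-sided, Benjamini-Hochberg over all genes fitted, threshold 0.05). Symbols came from RefSeq R64, which matched 5801 of 6301 ORFs. All 9 members and, in the other lists, all called genes are named, with the 2 nearest profiles of each fitted member. The script was tested on simulated data. The number of arrays limits the precision. The program of the methods (BAGEL) was not used here. Alternatives were the pairing, blanks allowed, moderation, centring, quantile scaling, the runs and single arrays left out.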

Additional observations from a re-analysis of the deposited data

Results flagged for a closer look

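HXT7 had a log2 ratio that was 2.66 higher with MM in Cy5 than with SC in Cy5, in the same direction in 2 of 2 replicates, although both orientations compare the same media. The orientations are named by the array titles, which the channel labels contradict, so the sign of this difference is not settled. The difference passed the limma test with the replicate number as a block (adjusted p 2.77e-08) and not without it (adjusted p 0.568 over 3765 genes). No block was used with single arrays left out, which gave differences of 2.31 to 3.01 and 0 genes passing in limma (56 to 311 at an unadjusted threshold of 0.05). The part of the dye and of cross-hybridization with HXT6 in this difference was not tested.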

How the results depend on the processing

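HXT4 at 1.30, HXT5 at 4.16 and HXT7 at 1.14 were no longer called with no moderation of the variance, where 0 genes were called and 877 had an unadjusted p at or under 0.05 (1 degree of freedom per gene). With no replicate block, as 4 separate arrays, HXT7 at 1.14 lost its call (limma adjusted p 0.134) and HXT1 at 0.82 gained one (0.0423), and the same happened with genes on at least 3 arrays (0.139 and 0.0446) and at least 2 arrays (0.134 and 0.0431). With a dye term as well, no call of a member changed (HXT7 adjusted p 0.00794, HXT1 0.0791). HXT1 at 0.82 was also called when the genes in the runs were left out (limma adjusted p 1.27e-10). That fit has much less spread between replicates over its genes as a whole, while the SD of HXT1 itself stayed at 0.62. Its adjusted p there draws on the spread shared over genes and does not measure that of HXT1. Centring, quantile scaling and robust moderation changed no call of a member. Over single arrays left out, the mean ran from 0.31 to 1.97 for HXT7, from -0.11 to 0.43 for HXT3 (below 0 without MM in Cy5 replicate 2), from 0.53 (without SC in Cy5 replicate 2) to 1.11 for HXT1, which was not called in any of these, from 1.05 to 1.43 for HXT8 and from 0.80 to 0.95 for HXT10. With SC in Cy5 alone HXT7 was at -0.19, with MM in Cy5 alone at 2.47.

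The count of 1263 called genes was 1986 of 4570 with at least 3 arrays, 2453 of 5895 with at least 2, 1920 of 2994 without the runs and 570 to 1026 without single arrays (570 without MM in Cy5 replicate 2). The count of 1 gene for the dye was 26 with the replicate block, 2 without the runs, 17 with both, 0 with quantile scaling (265 unadjusted), 0 with no moderation (306 unadjusted) and 0 without any single array (56 to 311 unadjusted). The dye difference of HXT7, 2.66, passed with the block, without the runs, and with both (limma adjusted p 7.22e-06). Those of HXT1 and HXT5 changed sign over single arrays, from -1.21 to 0.46 (above 0 without SC in Cy5 replicate 2) and from -0.79 to 0.42 (0.26 without replicate 1 of MM in Cy5, 0.42 without replicate 2 of SC in Cy5). The causes were not tested. Of the 13 called genes of the other lists, 5 stayed called without any single array, and 1 (RSP5) lost its call with quantile scaling (limma adjusted p 0.0613). The 2 replicates limit all tests.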

Other observations

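The spots of MPH2 and MPH3, alpha-glucoside permease genes that are close copies of each other, did not have like ratios. Transcripts of close copies can bind to either spot, so the ratios cannot be assigned to 1 gene, and the part of cross-hybridization was not tested. MPH3 was at -0.89 and -1.07 with MM in Cy5 and at -0.72 and -1.07 with SC in Cy5, while MPH2 was at 0.14 and 0.09 with MM in Cy5 and at 0.21 and 0.57 with SC in Cy5. Every value of MPH2 lay above every value of MPH3, in both orientations. The ORF YHR095W beside HXT5 was, like HXT7, among the 26 genes called for the dye with the replicate block, with differences of 0.65 in replicate 1 and 1.55 in replicate 2 (limma adjusted p 0.0209).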
